A study of Mus musculus with 9 samples.

Results

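The mRNAs of the Rab GTPases were followed through an RNA immunoprecipitation of the RNA-binding protein CELF2 from newborn mouse cortex. A gene was counted as a member when it encodes a protein and its symbol is Rab followed by a number and an optional letter, so genes of Rab regulators and effectors such as *Rab3gap1* or *Rab11fip4* were left out. All 59 such genes of the RefSeq annotation were in the deposited table, among 21254 protein-coding genes, and they were carried by 141 transcript rows that were summed per gene. Of these, 55 passed a filter of at least 0.5 CPM (counts scaled to a common library size) in at least 3 of the 9 libraries and were tested among 15267 genes. The other members were *Rab17*, *Rab19*, *Rab38* and *Rab44*, whose counts lay between 0 and 21 in every library and for which no fold change is given.

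In RIP-seq a protein is precipitated by an antibody and the RNA bound to it or its complexes is sequenced. The study asked which mRNAs are bound in the cytoplasm by a CELF2 variant that accumulates there. Cortices were taken on the day of birth (P0) from mice with 1 *Celf2* allele carrying the knockin variant R493H (KI). An aliquot of the cytoplasmic fraction was kept as input before antibody was added. The rest was incubated with either normal rabbit IgG or a rabbit anti-CELF2 antibody. The libraries were 3 CELF2 RIPs, 3 IgG RIPs and 3 inputs. Whether libraries with the same number came from the same preparation is not stated. All 9 libraries came from KI tissue and none from wild type, so no value below compares genotypes, and the sources do not describe the antibody as telling the mutant protein from the wild-type one. The labels call the libraries of a group biological replicates and list neurons, radial glia, astrocytes, oligodendrocyte precursors, microglia and endothelial cells, while the sources used here do not say whether animals were pooled.

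Rab proteins are small GTPases that act as switches on membranes. In the GTP-bound form each sits on its own compartment of the secretory or endocytic pathway and recruits effectors that move, tether or fuse vesicles, and in neurons they serve axon and dendrite growth, receptor recycling and the release of synaptic vesicles. Exchange factors (GEFs) load them with GTP, GTPase-activating proteins (GAPs) switch them off, and GDP dissociation inhibitors (GDIs) take the inactive, prenylated protein off the membrane. CELF2 binds GU-rich stretches of RNA and acts on splicing in the nucleus and on the stability and translation of mRNAs in the cytoplasm.

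Estimated counts assigned to protein-coding genes were 13523208 to 16840312 a library in CELF2 RIP, 9347321 to 14965243 in IgG RIP and 55250740 to 78514685 in input. Of 40 markers of the 7 cell classes looked at, 39 passed the filter, and the microglial gene *P2ry12* did not. The 5 erythroid markers were all called lower than in IgG RIP, with a summed level of 92.7 to 94.96 CPM in CELF2 RIP, 366 to 584 in IgG RIP and 877 to 1135 in input. The 8 excitatory neuron markers summed to 1681 to 2290 CPM in CELF2 RIP, 912 to 1062 in IgG RIP and 994 to 1165 in input, and 4 of them were called higher than in IgG RIP, while *Fezf2* (log2 -0.96) and *Neurod6* (log2 -0.14) lay below 0. Of the 6 radial glia markers, 3 were called lower than in IgG RIP and none higher, with a median of -0.96 and a summed level of 493 to 949 CPM in CELF2 RIP, 752 to 841 in IgG RIP and 1145 to 1346 in input. The 6 inhibitory neuron markers had a median of 0.72 over IgG RIP, with 2 called higher and 0 lower. Higher and lower calls were 1 and 0 for astrocyte markers, 1 and 1 for microglia, 0 and 1 for endothelium and 0 and 0 for oligodendrocyte precursors. The part of these shifts in the Rab values was not tested. Input was an aliquot of the cytoplasmic fraction used for the RIPs. These levels therefore describe mRNA recovered in each kind of library and not the number of cells of a type. *Celf2* mRNA itself was 2.74-fold higher in CELF2 RIP than in IgG RIP and 2.16-fold higher than in input.

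As a family, the Rab mRNAs made up more of the CELF2 RIP than of the IgG RIP. Their share of all protein-coding counts was 0.340% to 0.354% in the CELF2 RIPs, 0.214% to 0.232% in the IgG RIPs and 0.320% to 0.325% in the inputs. In this sum the CELF2 libraries lay above both controls, by a wide margin over IgG RIP and a narrow one over input. The sum weighs members by their counts, and *Rab6b*, with the most, averaged 608 CPM in CELF2 RIP and 253 in input. With total counts alone, the median log2 fold change of the members over input was -0.18, beside -0.27 over all tested genes. The narrow margin over input is therefore one of the summed counts and not of the typical member. Across the 55 tested members the median log2 fold change of CELF2 RIP was 0.59 over IgG RIP, beside -0.06 over all tested genes, and 0.27 over input, beside 0.19. The IgG RIP itself was poor in Rab mRNAs, with a median of -0.46 against input beside 0.00 over all genes.

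A gene was called when edgeR's quasi-likelihood test gave a false discovery rate (FDR) under 0.01 over all tested genes and the estimated change was at least 2-fold. Against IgG RIP, 20 of the 55 members (36.4%) were called higher, where 13.4% of all tested genes were, and 5 (9.09%) were called lower, where 13.6% of all were. The 20 became 16 with DESeq2 size factors and 9 with total counts alone. The shares of all genes against IgG RIP in those fits are not given here. Against input, 8 members (14.5%) were called higher beside 14.6% of all genes, and 9 (16.4%) lower beside 15.5%, so the family did not stand apart from the background in that comparison. The 8 members higher than input were also higher than IgG RIP, which is 14.5% of members beside 7.58% of all genes. They were *Rab1a*, *Rab8b*, *Rab14*, *Rab11a*, *Rab6b*, *Rab33b*, *Rab3c* and *Rab30*. *Rab4a*, *Rab34*, *Rab33a* and *Rab13* were called lower than both controls (7.27%), beside 9.54% of all genes.

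The number called higher than both controls depended on how libraries were scaled. It was 8 with TMM (14.5% of members beside 7.58% of all tested genes), 4 with DESeq2 size factors (7.27% beside 5.48%), 1 with upper-quartile factors (1.82% beside 3.40%) and 0 with total counts alone, where 1.55% of all genes were called. Leaving out CELF2 RIP replicate 2 lowered the count from 8 to 3, which is 5.45% of members beside 5.15% of all genes. Without replicate 1 it was 9 (16.4% beside 8.94%) and without replicate 3 it was 7 (12.7% beside 7.66%). The excess of the family over the background in this count was therefore present with TMM in these fits that kept CELF2 RIP replicate 2. It was small or absent with the other scalings and without replicate 2. With TMM it was also small when only the conditions compared were fitted (5.45% beside 4.46%). Over the 4 scalings the median of all tested genes over IgG RIP moved from -0.06 to -0.12, -0.32 and -0.42. The Rab median moved with it, since a change of scaling shifts all genes alike.

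In CPM on the TMM-scaled library size, all 3 CELF2 RIPs lay above all 6 controls for 24 members (43.6%), beside 25.2% of all tested genes. They lay below all 6 controls for 11 members (20%), beside 19.9% of all genes, and overlapped the controls for 20. These counts depend on the scaling too, and they were not made with the other scalings.

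**Figure D1:**
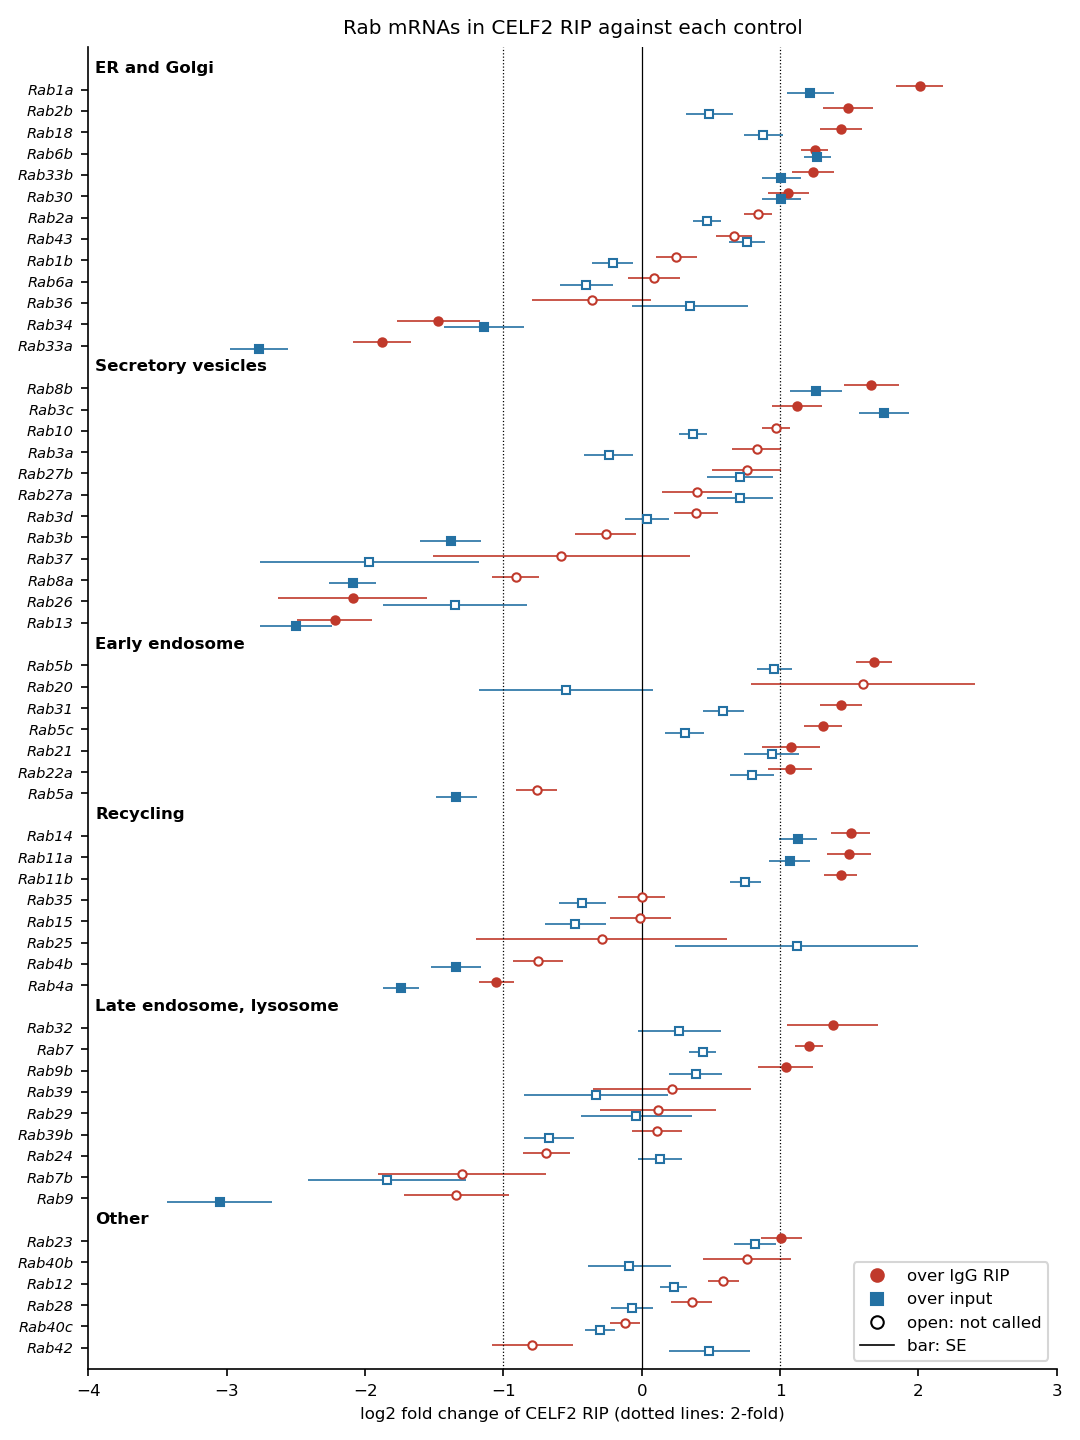
Log2 fold change of CELF2 RIP over IgG RIP (red circles) and over input (blue squares) for the 55 tested Rab genes, ordered by role. Bars are standard errors of the edgeR estimate (3 libraries a group), filled symbols are called changes, and dotted lines mark 2-fold. Red circles reach from -2.22 (*Rab13*) to 2.01 (*Rab1a*), and most blue squares lie to the left of the red circle of the same gene.

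The Rabs of the endoplasmic reticulum and Golgi held 4 of the 8 mRNAs higher than both controls and 2 of the 4 lower than both. The share called higher than both was 30.8% of its 13 tested genes, beside 7.58% of all tested genes, and 9.54% of all were lower than both. Against IgG RIP, 6 of the 13 were called above and 2 below, beside 13.4% and 13.6% of all tested genes. The medians were 0.84 over IgG RIP and 0.49 over input. *Rab1a* (chromosome 11, 20201412 to 20226856, GRCm38.p6) encodes the GTPase that takes vesicles from the endoplasmic reticulum to the Golgi, and it had the largest rise over IgG RIP in the family. Its level was 223, 319 and 229 CPM in the CELF2 RIPs, 54.4, 61.8 and 75.5 CPM in the IgG RIPs, and 112, 115 and 104 CPM in the inputs. Every CELF2 library lay above every control, and every IgG library below every input. The fold change was 4.03 over IgG RIP (log2 2.01, SE 0.17, edgeR FDR 1.25e-05) and 2.33 over input (log2 1.22, SE 0.17, FDR 0.000129). Its call over both controls held in 9 of 9 fits without 1 library and in 5 of 10 other alternative fits.

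*Rab6b* (chromosome 9, 103111667 to 103185276), the neuronal form of the Rab6 GTPases of Golgi transport, came out nearly alike against both controls. The CELF2 RIPs stood at 540, 625 and 659 CPM, the IgG RIPs at 247, 265 and 253 CPM and the inputs at 251, 244 and 263 CPM. IgG RIP and input could not be separated here (log2 0.01, SE 0.10), while CELF2 RIP was 2.38-fold above IgG RIP (FDR 1.15e-05) and 2.41-fold above input (FDR 7.19e-06). The call of *Rab6b* over both controls held in 9 of 9 fits without 1 library and in 6 of 11 others. *Rab33b* (chromosome 3, 51483966 to 51496228), a Golgi Rab that binds the autophagy protein Atg16l1, was at 44.9, 53.4 and 53.0 CPM in CELF2 RIP, 23.4, 23.3 and 17.6 CPM in IgG RIP and 24.4, 25.7 and 25.1 CPM in input. *Rab30* (chromosome 7, 92741637 to 92844535), another Golgi Rab, was at 57.8, 71.0 and 66.8 CPM in CELF2 RIP, 34.2, 25.7 and 33.8 CPM in IgG RIP and 33.9, 33.4 and 30.0 CPM in input. Neither gene's CELF2 libraries overlapped the controls, but both sat at the 2-fold limit over input, each with a log2 fold change of 1.01 (SE 0.14). Their call was the least steady of the 8, holding in 5 of 9 fits without 1 library for *Rab33b* and in 4 of 9 for *Rab30*. Each held in 1 of 11 other alternative fits.

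On the other side, *Rab33a* (chromosome X, 48513663 to 48530240), the relative of *Rab33b* that acts on vesicles of the growing axon, was lower in CELF2 RIP than in either control. It was at 2.32, 2.93 and 2.41 CPM there, at 7.70, 8.52 and 12 CPM in IgG RIP and at 17.2, 16.9 and 18.4 CPM in input. The 3 groups did not overlap, in the order input, IgG RIP and CELF2 RIP. The fall was to 0.271 of the IgG level (log2 -1.88, SE 0.21, FDR 5.32e-05) and to 0.146 of the input level (log2 -2.77, SE 0.21, FDR 5.30e-06), and the call held in every alternative fit, 9 without 1 library and 11 others. *Rab34* (chromosome 11, 78188427 to 78192193), a Golgi Rab needed for cilia, was at 7.92, 6.39 and 5.80 CPM in CELF2 RIP, 27.6, 16.4 and 11.5 CPM in IgG RIP and 13.0, 14.6 and 16.9 CPM in input. Its IgG libraries were widely spread, and its call as lower than both was kept in 3 of 9 fits without 1 library.

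The ubiquitous Golgi form *Rab6a* was at 121, 84.2 and 104 CPM in CELF2 RIP, 83.5, 79.3 and 129 CPM in IgG RIP and 140, 134 and 135 CPM in input. The CELF2 and IgG libraries overlapped, and its log2 value of 0.09 against IgG RIP (SE 0.19, FDR 0.730) turned negative under 3 of the scalings, reaching -0.27 with total counts. *Rab1b*, which shares the step of *Rab1a*, stood at log2 0.25 against IgG RIP and -0.21 against input, neither called. Of the remaining members, *Rab2b* and *Rab18* were called higher than IgG RIP only, with 1.49 and 1.44, and *Rab2a*, *Rab36* and *Rab43* were not called.

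**Figure D2:**
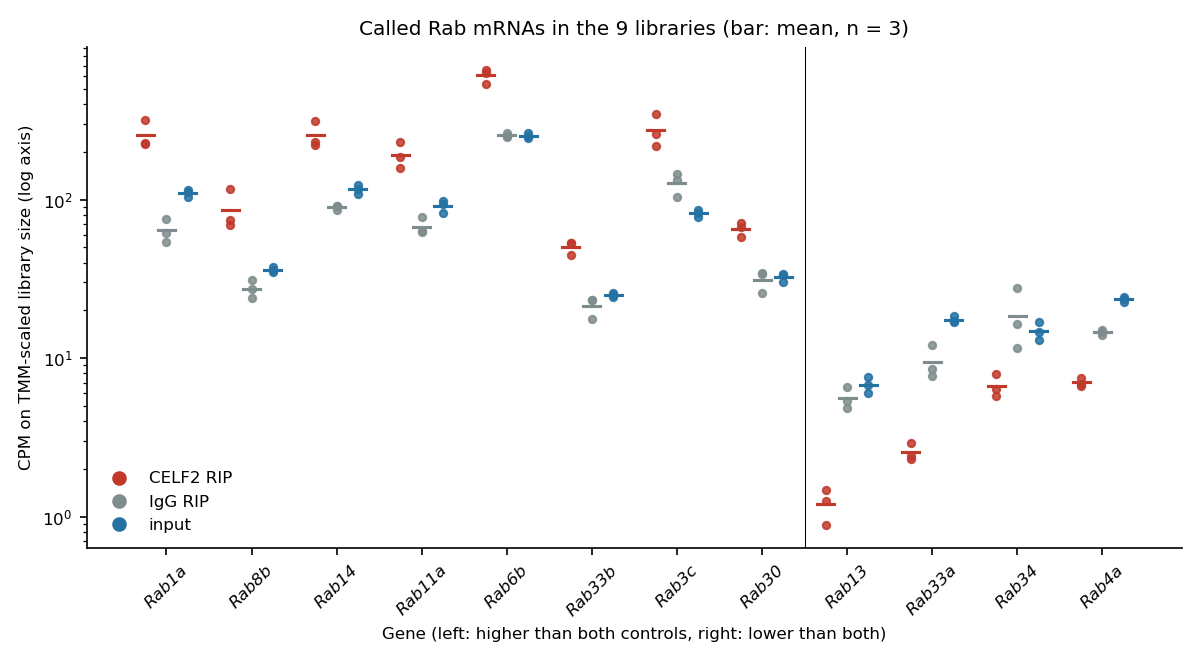
CPM on the TMM-scaled library size (log axis) of the 12 Rab genes called against both controls, with 1 point per library and a bar at the mean of 3. Red CELF2 RIP points lie above all grey IgG RIP and blue input points for the 8 genes on the left and below them for the 4 on the right.

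Among 12 Rabs of secretory and synaptic vesicles, *Rab8b* and *Rab3c* were called higher than both controls (16.7%, beside 7.58% of all tested genes). *Rab13* was called lower than both, beside 9.54% of all tested genes. The medians were 0.40 over IgG RIP and -0.10 over input. *Rab8b* (chromosome 9, 66843609 to 66919705), which acts in traffic to the plasma membrane, was at 69.5, 116 and 73.8 CPM in CELF2 RIP, 31.0, 23.8 and 27.3 CPM in IgG RIP and 37.3, 36.2 and 34.8 CPM in input. Replicate 2 was the highest of the CELF2 RIPs and even the lowest was above all controls, with 3.15-fold over IgG RIP (log2 1.66, SE 0.20, FDR 7.09e-05) and 2.39-fold over input (log2 1.26, SE 0.19, FDR 0.000289). *Rab8b* kept its call over both controls in 8 of 9 fits without 1 library, losing it without CELF2 RIP replicate 2, and in 8 of 11 others. Its relative *Rab8a* went the other way, at 11.2, 10.9 and 8.30 CPM in CELF2 RIP, 16.3, 22.1 and 18.8 CPM in IgG RIP and 40.9, 41.9 and 46.8 CPM in input. The groups did not overlap. *Rab8a* was called lower than input (log2 -2.09, SE 0.17, FDR 7.32e-06) and missed the 2-fold limit against IgG RIP (log2 -0.91, SE 0.17, FDR 0.00118).

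The Rab3 GTPases sit on synaptic vesicles and act in transmitter release. *Rab3c* (chromosome 13, 110054187 to 110280996) had the largest rise over input in the family. It was at 218, 349 and 261 CPM in CELF2 RIP, 133, 104 and 144 CPM in IgG RIP and 82.7, 86.0 and 77.5 CPM in input. It differed from most members in that its IgG libraries lay above its inputs (log2 0.63, SE 0.18, FDR 0.0181), so that the rise was 3.36-fold over input (log2 1.75, FDR 2.76e-05) and 2.17-fold over IgG RIP (log2 1.12, FDR 0.000449). Its call over both controls held in 8 of 9 fits without 1 library, being lost without CELF2 RIP replicate 2, and in 6 of 11 others. *Rab3a*, the main Rab3 of the adult brain, was at 120, 127 and 123 CPM in CELF2 RIP, 48.2, 72.1 and 87.7 CPM in IgG RIP and 143, 140 and 153 CPM in input. The CELF2 libraries stood between the controls, above every IgG library and below every input, and no call was made (log2 0.83 over IgG RIP, FDR 0.00305, and -0.24 over input, FDR 0.279). *Rab3b* was called lower than input only (log2 -1.38, FDR 0.000355), and *Rab3d* was not called.

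*Rab13* (chromosome 3, 90213715 to 90226387), known from cell junctions and neurite growth, had the lowest log2 fold change over IgG RIP in the family. It was at 0.880, 1.46 and 1.25 CPM in CELF2 RIP, 5.38, 6.54 and 4.87 CPM in IgG RIP and 6.06, 6.72 and 7.63 CPM in input. CELF2 RIP was clear of both controls, which overlapped each other. The CELF2 values rest on 11 to 19 reads a library, and the fall was to 0.215 of the IgG level (log2 -2.22, SE 0.27, FDR 7.60e-05) and to 0.177 of the input level (log2 -2.50, SE 0.26, FDR 3.01e-05). *Rab26*, which links synaptic vesicles to autophagy, was at 0.640, 0.616 and 0.268 CPM in CELF2 RIP, 3.75, 1.49 and 1.29 CPM in IgG RIP and 1.35, 1.45 and 1.13 CPM in input. It was called lower than IgG RIP only (log2 -2.09, SE 0.54, FDR 0.00739), on 3 to 8 reads a library in CELF2 RIP. *Rab10*, *Rab27a*, *Rab27b* and *Rab37* were not called in either comparison.

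Of 7 tested Rabs of the early endosome, *Rab5b*, *Rab5c*, *Rab21*, *Rab22a* and *Rab31* were called higher than IgG RIP. Their log2 fold changes were between 1.07 and 1.68, and 13.4% of all tested genes were called higher. None of the 7 was called higher than input, where 14.6% of all tested genes were. The named genes lay between 0.31 and 0.96 over input. The median of the group was 1.31 over IgG RIP and 0.59 over input. *Rab5b*, which drives fusion of early endosomes, was at 232, 207 and 229 CPM in CELF2 RIP, 58.1, 69.6 and 80.5 CPM in IgG RIP and 115, 109 and 120 CPM in input. The 3 groups did not overlap. It was 3.21-fold higher than IgG RIP (log2 1.68, SE 0.13, FDR 9.69e-06) and, at 1.94-fold over input (log2 0.96, SE 0.13, FDR 0.000116), it fell just short of the 2-fold limit. *Rab5a*, with the same known role, was lower in CELF2 RIP instead, at 16.7, 17.2 and 17.8 CPM, than in IgG RIP, at 34.1, 29.3 and 24.1 CPM, and in input, at 45.7, 43.0 and 42.5 CPM. Its fall was called against input (log2 -1.34, SE 0.15, FDR 3.47e-05) and was under 2-fold against IgG RIP (log2 -0.76, SE 0.15, FDR 0.00138). *Rab20*, seen with 0 to 8 reads in the RIP libraries, was not called.

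The 8 Rabs of recycling endosomes were split. *Rab14* (chromosome 2, 35180205 to 35201120), which works between endosomes and the Golgi, was at 231, 315 and 220 CPM in CELF2 RIP, 86.0, 91.7 and 91.0 CPM in IgG RIP and 123, 117 and 109 CPM in input. *Rab11a* (chromosome 9, 64715300 to 64737756), the switch of receptor recycling, was at 185, 231 and 159 CPM in CELF2 RIP, 62.0, 63.5 and 77.3 CPM in IgG RIP and 93.6, 98.2 and 82.5 CPM in input. For both, every CELF2 library was above every control. *Rab14* was 2.85-fold above IgG RIP (log2 1.51, SE 0.14, FDR 1.86e-05) and 2.19-fold above input (log2 1.13, SE 0.14, FDR 7.21e-05). *Rab11a* was 2.83-fold above IgG RIP (log2 1.5, SE 0.16, FDR 3.21e-05) and 2.09-fold above input (log2 1.07, SE 0.15, FDR 0.000197). The call over both controls held in 8 of 9 fits without 1 library and 3 of 10 others for *Rab14*. For *Rab11a* it held in 7 of 9 and 2 of 11. *Rab11b* was called higher than IgG RIP only (log2 1.44, and 0.75 over input).

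Of the Rab4 GTPases, which act in fast recycling, *Rab4a* was called lower than both controls. *Rab4a* (chromosome 8, 123805846 to 123835291) was at 7.52, 6.85 and 6.69 CPM in CELF2 RIP, 14.0, 14.7 and 15.1 CPM in IgG RIP and 22.5, 23.4 and 24.4 CPM in input. The libraries of each group were close together and the groups far apart, with falls to 0.483 of the IgG level (log2 -1.05, SE 0.13, FDR 0.000100) and 0.30 of the input level (log2 -1.74, SE 0.13, FDR 4.86e-06). *Rab4b* was called lower than input (log2 -1.34, FDR 0.000125) and not against IgG RIP (log2 -0.75). *Rab15*, *Rab25* and *Rab35* were not called.

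None of 9 tested Rabs of late endosomes and lysosomes was called against both controls, where 7.58% of all tested genes were higher and 9.54% lower. The medians were 0.12 over IgG RIP and -0.04 over input. *Rab7*, which directs late endosomes to lysosomes and the long-range transport of neurotrophin receptors, was at 172, 188 and 181 CPM in CELF2 RIP, 75.3, 74.4 and 83.7 CPM in IgG RIP and 134, 127 and 139 CPM in input. Its groups did not overlap, and it was called higher than IgG RIP (log2 1.21, SE 0.10, FDR 1.15e-05) but was 1.35-fold over input (log2 0.44, SE 0.10, FDR 0.00296). *Rab9b*, of transport from late endosomes to the Golgi, was at 18.3, 13.0 and 14.0 CPM in CELF2 RIP, 7.57, 6.05 and 8.39 CPM in IgG RIP and 12.7, 11.6 and 10.3 CPM in input, and was called higher than IgG RIP only (log2 1.04, SE 0.20, FDR 0.00122). *Rab9*, with the same known role, was at 1.28, 1.23 and 1.43 CPM in CELF2 RIP, 4.32, 4.16 and 1.51 CPM in IgG RIP and 10.7, 9.38 and 12.7 CPM in input. The 3 CELF2 libraries held 16 reads of it each. Its log2 fold change over input, -3.05 (SE 0.38, FDR 7.27e-05), was the lowest of the family, while the FDR against IgG RIP was 0.0130.

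*Rab39b*, a neuronal Rab of synapse formation whose human counterpart is mutated in X-linked intellectual disability, was at 12, 12.6 and 10.2 CPM in CELF2 RIP, 8.82, 10.0 and 13.3 CPM in IgG RIP and 18.9, 19.2 and 17.3 CPM in input. CELF2 RIP and IgG RIP overlapped, and the log2 value of 0.11 against IgG RIP (SE 0.18, FDR 0.617) turned to -0.25 with total counts. It was -0.67 over input (FDR 0.00721), under 2-fold. *Rab7b* was at 0.720, 0.0770 and 0.268 CPM in CELF2 RIP, 0.813, 0.892 and 0.932 CPM in IgG RIP and 1.24, 1.37 and 1.23 CPM in input, on 1 to 9 reads a library in CELF2 RIP, and was not called (FDR 0.0959 against IgG RIP). *Rab32*, of lysosome-related organelles, was called higher than IgG RIP only (log2 1.38). *Rab24*, *Rab29* and *Rab39* were not called.

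The other 6 tested members had medians of 0.48 over IgG RIP and 0.08 over input. *Rab23*, an inhibitor of Hedgehog signalling, was called higher than IgG RIP (log2 1.01, FDR 0.000310) and was at log2 0.82 over input. *Rab12*, *Rab28*, *Rab40b*, *Rab40c* and *Rab42* were not called in either comparison. In all, 25 tested members were called against neither control.

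*Rab33a* and *Rab33b* were called in opposite directions against both controls, the only pair of close relatives that was. To compare relatives without any scaling between libraries, the log2 ratio of the estimated counts of both genes was taken within each library, with 0.5 added to each count, for 18 pairs of tested members with the same name apart from the letter, or paired by close sequence (*Rab22a* and *Rab31*). The ratio is not a comparison of levels between genes, since their transcripts differ in length, and only its shift between CELF2 RIP and the 6 controls is read. By an exact two-sided permutation test over the 84 splits of 9 libraries into 3 and 6, 9 of the 18 pairs reached p = 0.0119, the smallest that this design can give. Each of the 9 had an adjusted p of 0.0238 (Benjamini-Hochberg over the 18 pairs). Whether a replicate number marks a shared lysate is not stated. With the number as a block, the gene pairs with an adjusted p under 0.05 fell from 9 to 0. That exact permutation test cannot give a p below 0.037, so the fall does not show whether libraries of a number belong together. In all 9, the shift had the same sign against IgG RIP and against input taken alone, though 3 libraries against 3 cannot give a p below 0.10.

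The widest shift was that of *Rab33a* to *Rab33b*. Its mean log2 ratio was -4.29 (SD 0.13, n = 3) in CELF2 RIP, -1.20 (SD 0.57, n = 3) in IgG RIP and -0.52 (SD 0.08, n = 3) in input, a difference of -3.43 from the controls. Thus *Rab33a* lost ground to *Rab33b* in all 3 CELF2 libraries, which reached from -4.43 to -4.17 and were far outside the range of the controls. For *Rab8a* to *Rab8b* the mean was -3.06 (SD 0.39, n = 3) in CELF2 RIP, -0.52 (SD 0.41, n = 3) in IgG RIP and 0.26 (SD 0.15, n = 3) in input, a difference of -2.93. For *Rab9* to *Rab9b* the difference was -2.80 and for *Rab5a* to *Rab5b* it was -2.37. In each of these pairs the gene with the letter b gained on its relative in CELF2 RIP.

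*Rab5a* to *Rab5c* differed by -1.86 and *Rab6a* to *Rab6b* by -1.41, again with the first gene the lower. The direction was the opposite for *Rab1a* to *Rab1b*, where the ratio was 1.36 (SD 0.56, n = 3) in CELF2 RIP, -0.41 (SD 0.20, n = 3) in IgG RIP and -0.07 (SD 0.09, n = 3) in input, a difference of 1.60 in favour of *Rab1a*. It was also positive for *Rab3a* to *Rab3b*, at 1.13, and for *Rab7* to *Rab7b*, at 2.67, where the 1 to 9 reads of *Rab7b* set the size of the shift. *Rab3a* and *Rab5a* each belong to more than 1 pair, so that the pairs are not all independent.

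The other 9 pairs did not pass. *Rab11a* to *Rab11b* differed by 0.18 (exact permutation p = 0.262, adjusted p = 0.337), and *Rab22a* to *Rab31* by -0.05 (exact permutation p = 0.869, adjusted p = 0.869). *Rab40b* to *Rab40c*, at 0.59, lay above all controls without passing the exact permutation test (p = 0.0952, adjusted p = 0.156). For *Rab3a* to *Rab3c* the controls disagreed with each other, since the ratio in CELF2 RIP less that in IgG RIP was -0.23 and less that in input -1.96 (exact permutation p = 0.119, adjusted p = 0.179). Reads that fit both genes of a pair were divided between them by the authors' quantification, and how many there were was not measured.

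**Figure D3:**
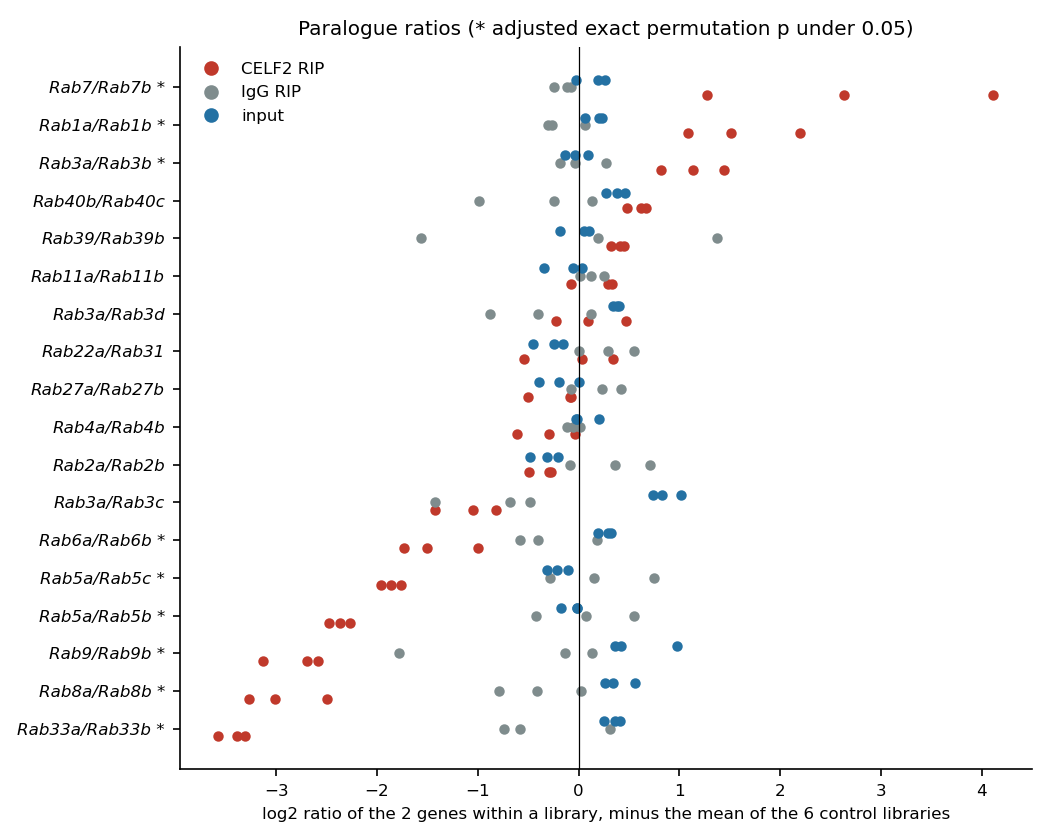
Log2 ratio of the estimated counts of the genes of each pair within a library, less the mean of the 6 control libraries, for 18 Rab pairs with 1 point per library. Stars mark the 9 pairs with an adjusted exact permutation p of 0.0238, where the 3 red CELF2 RIP points lie to 1 side of all grey IgG RIP and blue input points.

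The controls were also compared with each other, in a contrast that shares its IgG libraries with that of CELF2 RIP over IgG RIP. For 36 members (65.5%) all IgG libraries were below all inputs, beside 29.4% of all tested genes, and for 4 (7.27%) they were above, beside 27.1%. *Rab2b*, *Rab5c*, *Rab3a*, *Rab3b*, *Rab8a* and *Rab9* were lower by the same call in IgG RIP than input, which is 10.9% of members beside 5.0% of all genes, with log2 fold changes from -1.72 (*Rab9*) to -1.0 (*Rab2b* and *Rab5c*). *Rab42* was called higher in IgG RIP (log2 1.27, FDR 0.00647), beside 6.79% of all genes. The log2 fold change of IgG RIP over input was below 0 for 45 of the 55 members. The 12 members called higher than IgG RIP and not than input lay between 0.27 and 0.96 over input, all above 0. That holds with TMM, while *Rab7* and *Rab9b* fell to -0.03 and -0.06 over input with total counts.

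Transcript rows gave far fewer calls than genes. Of the 141 rows of the family 108 were tested, and by edgeR's quasi-likelihood test 0 were called higher than both controls, beside 0.496% of 39137 tested rows, and 1 was called lower than both, the only row of *Rab33a*, beside 2.21%. At an unadjusted p under 0.05, 11 rows (10.2%) lay above 0 in both comparisons, beside 4.64% of all tested rows, and 10 (9.26%) below 0, beside 9.6%, and DESeq2's Wald test called 2 rows higher than both. The median of all tested rows was -0.20 over IgG RIP and -0.14 over input in this fit, so that the same reads gave lower values than in the gene fit. The single row of *Rab1a*, for instance, had log2 fold changes of 1.77 (SE 0.17) and 0.73 (SE 0.17).

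Of the 8 genes higher than both controls, *Rab6b*, *Rab30* and *Rab3c* have more than 1 row, and the division of counts among their rows differed between groups. A predicted transcript of *Rab6b* (XM_006511737) took 42.0% to 55.5% of the gene's estimated counts in CELF2 RIP, 24.2% to 50.4% in IgG RIP and 15.5% to 23.1% in input. Its log2 fold change over input was 2.06 (SE 0.29, FDR 0.00337), whereas the curated row of the gene stood at 0.15 (SE 0.19, FDR 0.763). In *Rab30* a predicted transcript (XM_006508293) took 69.7% to 78.4% in CELF2 RIP, 22.4% to 51.2% in IgG RIP and 24.9% to 37.9% in input. In *Rab3c* the curated row took 93.4% to 95.5% in CELF2 RIP, 94.3% to 100% in IgG RIP and 84.6% to 95.3% in input, and a predicted row took 1.1% to 1.4%, 0.0% to 5.64% and 4.69% to 7.87%. These divisions were estimated by the authors' quantification from overlapping rows, and whether the predicted rows are transcripts of these cells was not tested. When only rows whose accession version matched the gene table were summed, an alternative chosen after seeing the data, *Rab30* fell to -0.06 over input and *Rab6b* to 0.59.

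**Figure D4:**
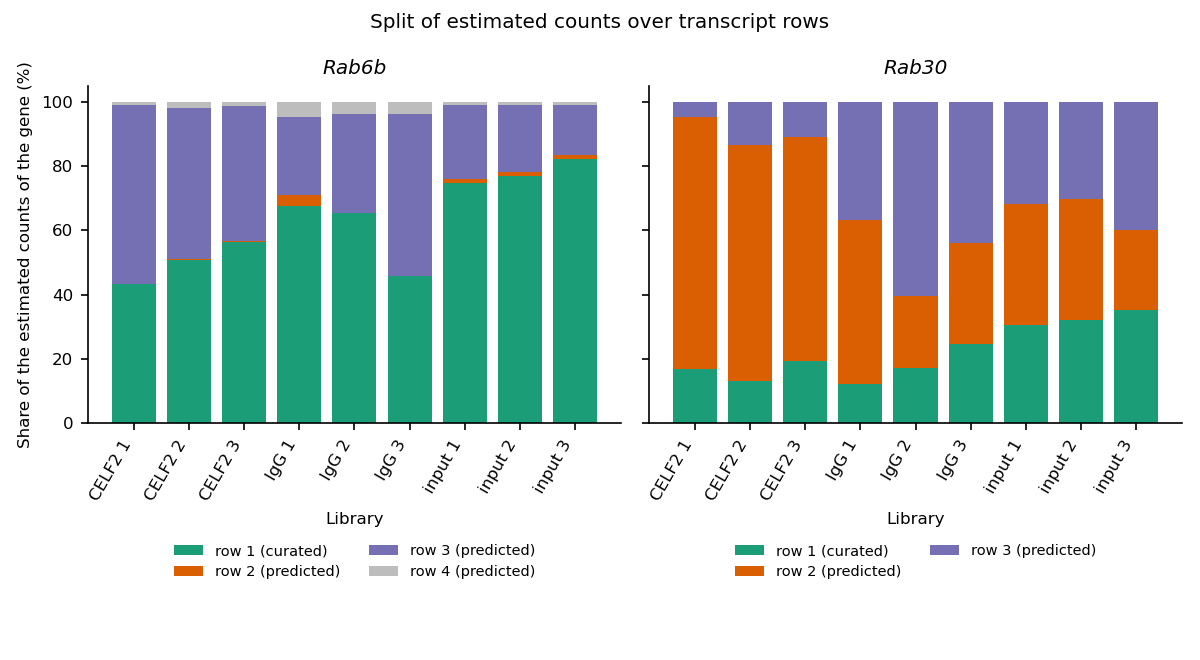
Share of the estimated counts of *Rab6b* and *Rab30* taken by each of their transcript rows in the 9 libraries (stacked bars, percent of the gene's counts). Row 3 of *Rab6b* and row 2 of *Rab30*, both predicted transcripts, hold 42.0% to 55.5% and 69.7% to 78.4% of the counts in CELF2 RIP, above the shares in input.

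Levels and gene spans went along with the fold change, in the family as in all genes. Across the 55 members, Spearman's rank correlation of the log2 fold change over IgG RIP was 0.534 with the mean CPM and 0.310 with the genomic span. Over all 15267 tested genes it was 0.311 and 0.203. These are correlations across genes that share libraries and are given as a description. The mean CPM covers all 9 libraries, so the CELF2 and IgG RIPs enter both it and the fold change. All 8 members called higher than both controls were in deciles 7 to 10 of the tested genes by mean CPM, which held 28 of the 55 members and 78.2% of all genes called higher than both. Within these deciles 28.6% of members were called higher than both, beside 14.8% of all genes. Their spans reached from 12263 to 226810 bases with a median of 49527.5, beside a median of 22669 for the other 47.

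Genes that act on Rabs were counted in the same way. Lists of GEFs, GAPs, effectors and genes of prenylation and extraction held 133 tested genes together, of which 11 (8.27%) passed as higher and 15 (11.3%) as lower against IgG RIP, beside 13.4% and 13.6% of all tested genes. Against input 21 (15.8%) passed as higher and 9 (6.77%) as lower, beside 14.6% and 15.5%. Their median stood at -0.12 over IgG RIP, at 0.39 over input, and for IgG RIP against input at 0.32. Against both controls, 8 (6.02%) were called higher and 5 (3.76%) lower, beside 7.58% and 9.54% of all genes.

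Among the genes that prenylate and extract Rabs, *Gdi2*, which encodes a GDI, was not called, with 155 ± 43.1 CPM in CELF2 RIP, 142 ± 49.4 in IgG RIP and 193 ± 5.28 in input (mean ± SD, n = 3). *Chm*, which presents Rabs to the prenylating enzyme, was not called either (log2 -0.33 over IgG RIP and -0.21 over input). *Rabac1*, a membrane receptor for prenylated Rabs, was called higher than IgG RIP only (log2 1.63), and *Rabggta*, a subunit of the prenylating enzyme, lower than IgG RIP only (log2 -1.13).

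Of 38 tested GEFs, *C9orf72* (log2 1.16 over IgG RIP and 0.78 over input) and *Madd* (log2 1.10 and 1.89), an activator of the Rab3 GTPases, had the largest called rises over IgG RIP. *Dennd6b* (log2 -1.78 and -0.26) and *Rin1* (log2 -1.73 and -1.49) had the largest called falls. *Madd* and *Rin1* passed against both controls, in opposite directions.

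Of 39 tested GAPs, *Tbc1d13* (log2 2.13 over IgG RIP and 1.96 over input) and *Tbc1d22b* (log2 2.02 and 1.73) were called higher than both controls and *Sgsm3* (log2 -1.63 and -1.16) lower than both. *Evi5l* was called lower than IgG RIP only (log2 -2.62 and -1.33, the latter with FDR 0.0108). Where 13.4% of all tested genes were called higher than IgG RIP, 1 of 48 tested effectors was. That was *Rab11fip4*, a partner of Rab11, at 979 ± 156 CPM in CELF2 RIP, 430 ± 15.6 in IgG RIP and 271 ± 21.0 in input (mean ± SD, n = 3), which was also called higher than input (log2 1.19 and 1.85). The effectors *Optn* (log2 -1.79 and -0.41) and *Mical1* (log2 -1.77 and -0.73) were called lower than IgG RIP only.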

How the data were processed

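RNA from 3 CELF2 RIPs, 3 IgG RIPs and 3 inputs was depleted of rRNA by the authors and made into directional libraries. Reads were checked with FastQC 0.11.9, trimmed with fastp 0.23.4, cleared of rRNA with Ribodetector 0.3.1 and pseudoaligned with kallisto 0.51.1. The deposited table holds estimated counts per transcript, not scaled for depth or length. The paper's methods name Ensembl transcripts, whereas the rows carry RefSeq accessions, and the submitters' processing notes give the build mm10. All columns were mapped to samples, and 0 columns were left out.

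Of 107384 rows, 86722 were matched to genes of the RefSeq table of GRCm38.p6 by accession without version. The 20662 unmatched rows were left out of library sizes and tests. They held 9.24% to 9.75% of the counts in input, 11.6% to 12.6% in CELF2 RIP and 21.1% to 43.5% in IgG RIP. For the Rab genes, 98 of 141 rows matched in version too. The counts of a gene's rows were added up and rounded. Genes encoding proteins that reached 0.5 CPM in 3 or more libraries were fitted with edgeR 4.0.16 (TMM, quasi-likelihood test, 1 mean per condition, all 9 libraries) in R 4.3.3 with limma 3.58.1. TMM factors were 0.771 to 0.878 in CELF2 RIP, 1.05 to 1.08 in IgG RIP and 1.12 to 1.16 in input. A call required an FDR below 0.01 and a 2-fold or larger change. CPM values use the TMM-scaled library size, and standard errors come from the fit. The gene fit was tested on simulated data in which few genes changed, as many up as down. The pair test and the fit of transcript rows were not simulated. Other tables were made with pandas 2.3.3 in Python 3.11.15 and figures with matplotlib 3.10.9.

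Replicates of a group differed by more than sampling noise (chi-square per gene 12.2 to 46.0). P-values measure the spread between these libraries. Reads carry no molecular identifiers. Across 15267 genes, deviations from the group mean correlated between same-numbered libraries at 0.110, 0.117 and 0.123 for CELF2 RIP with input, at -0.056, 0.043 and 0.014 for CELF2 RIP with IgG RIP, and at 0.030, 0.065 and 0.038 for IgG RIP with input. These correlations are weak, and the labels do not say whether a number marks a shared lysate. The replicate number entered as an alternative, as a block over all groups.

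The members, the lists of roles, relatives and regulators, and the tests were chosen with earlier results of these data known. Values per library are given for members called against both controls, the 3 highest and 3 lowest over IgG RIP, both genes of the 5 widest pairs, and *Rab1a*, *Rab3a*, *Rab5a*, *Rab6a*, *Rab7*, *Rab8a*, *Rab11a* and *Rab39b*. Of each list of regulators, the 2 highest and 2 lowest called genes are named, with *Gdi2* and *Chm*, except where a result is not reported here. Alternatives changed the scaling, the filter, the test, the samples in the fit, the replicate block and the rows summed, or left out 1 library. DESeq2 1.42.0 served for its size factors and Wald test.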

Additional observations from a re-analysis of the deposited data

How the results depend on the processing

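Calls against IgG RIP, calls against input and calls over both controls depended on the scaling. The count higher than both controls was 8. It was 4 with DESeq2 size factors, 0 with total counts, 1 with upper-quartile factors, 0 with TMM over coding and noncoding genes, 4 with DESeq2's Wald test, 0 with edgeR's glmTreat (a test against 2-fold), 5 without a filter, 3 with only the conditions compared and 2 with version-matched rows. In the same order the count higher than input (8) was 4, 1, 3, 1, 4, 1, 5, 3 and 3. The count higher than IgG RIP (20) was 9 with total counts, 10 with upper-quartile factors, 12 with TMM over coding and noncoding genes, 5 with glmTreat and 10 with version-matched rows. The count lower than IgG RIP (5) was 11, 9 and 2 with total counts, upper-quartile factors and glmTreat, and that lower than both (4) was 8, 8 and 2. With glmTreat 5 were lower than input (9), and in IgG RIP over input 0 were higher (1) and 0 lower (6), the latter 1 with version-matched rows. Transcript rows higher than both (0) were 1 with DESeq2 size factors and 2 each with upper-quartile factors, DESeq2's Wald test and a filter of 5 CPM. Fewer genes or samples entered the fits with a filter, version-matched rows or only the conditions compared, and the causes of the other changes were not tested.

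With the replicate block, the only counts that moved were that higher in IgG RIP than in input, from 1 to 0, and that of pairs, from 9 to 0, where the smallest exact permutation p is 0.037. With 1 control alone the pairs were 0 too, since the smallest p is 0.10 (exact permutation test). Leaving out 1 library gave 3 to 9 members higher than both, 3 to 5 lower than both, 14 to 20 higher and 3 to 6 lower than IgG RIP, 4 to 9 higher and 8 to 10 lower than input, 0 to 1 higher and 2 to 7 lower in IgG RIP than in input, 0 to 1 transcript rows and 0 to 9 pairs, which are 0 without any CELF2 library because the smallest exact permutation p is then 0.0357.

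Signs turned for values near 0, within wider ranges when 1 library was left out (up to 0.34 for *Rab6a* and 0.3 for *Rab39b* over IgG RIP, both without IgG RIP replicate 3, and up to 0.29 for the ratio of *Rab3a* to *Rab3d* without CELF2 RIP replicate 1). *Rab6a* over IgG RIP was -0.27 with total counts, -0.17 with upper-quartile factors, -0.13 with TMM over coding and noncoding genes, 0.00 without a filter, -0.04 with version-matched rows and -0.05 to -0.02 without 1 of 4 libraries. *Rab39b* over IgG RIP was -0.25, -0.15 and -0.11 with the same 3 scalings, -0.01 with version-matched rows and -0.02 without IgG RIP replicate 1. Over input, *Rab30* was -0.06 with version-matched rows, and *Rab7* and *Rab9b* were -0.03 and -0.06 with total counts. The ratio of *Rab3a* to *Rab3d* shifted by -0.26 against input alone and by -0.06 and -0.05 without 1 library, and that of *Rab22a* to *Rab31* by 0.23 against input alone and by 0.01, 0.06 and 0.19 without 1 library. Members with few reads in CELF2 RIP, such as *Rab7b*, *Rab9*, *Rab13* and *Rab26*, are limited by depth.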

Other observations

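Other families of small GTPases were fitted in the same model. Of 25 tested genes of the Arf family, which recruit coats and tethers to membranes, 10 were called higher and 4 lower than IgG RIP. Of all tested genes, 13.4% and 13.6% were. The Arf medians were 0.85 over IgG RIP and 0.59 over input beside -0.06 and 0.19 over all tested genes. *Arl4d* (log2 2.13 over IgG RIP and 1.69 over input) and *Arl15* (log2 1.89 and 1.40) were among 7 called higher than both controls, and *Sar1b*, of vesicle budding at the endoplasmic reticulum (log2 -1.35 and -2.52), and *Arl16* (log2 -1.52 and -1.15) were among 4 called lower than both. The share called higher than both was 28.0%, beside 7.58% of all tested genes, and 9.54% of all tested genes were called lower than both.

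Of 25 tested genes of the Ras family, 7 (28.0%) were called higher than both controls, beside 7.58% of all tested genes. *Diras1* (log2 1.93 and 1.66) and *Rap2a* (log2 1.92 and 1.66) were among them. *Rem2* (log2 -2.0 and -2.43), a regulator of calcium channels, and *Hras* (log2 -1.87 and -2.60) were the 2 called lower than both, beside 9.54% of all tested genes. The genes named here were chosen after their values were seen, and the lists were not set against other lists by a test.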
